A study of Mus musculus with 2 samples.

Results

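Fatty acids are burned in the heart through a fixed chain of enzymes, and 54 genes of this chain were followed in heart apex tissue of E12.5 mouse embryos. The members were chosen by gene symbol, without a cut on measured values, but with earlier results of these data known. The families are the acyl-CoA synthetases (Acsl), fatty acid transport proteins (Slc27a), acyl-CoA thioesterases (Acot), the carnitine shuttle, the acyl-CoA dehydrogenases with their electron carriers, the enzymes of the later beta-oxidation steps and their peroxisomal relatives. The members are 54 of 29383 gene symbols in the deposited table. RNA was sequenced from 1 library per genotype, each made from the apex tissue of 8 hearts pooled. The heterozygote (Nkx2-5cre, Ezh2f/+) has 1 floxed copy of Ezh2, the gene of the catalytic subunit of Polycomb repressive complex 2, and the mutant (Nkx2-5cre, Ezh2f/f) has both copies floxed. Both groups carry Cre recombinase driven by Nkx2-5, which is active in the cardiac lineage. Which cells of the tissue had lost Ezh2 cannot be read from these data. A group without Cre was not analysed here. With 1 library per genotype the spread between animals is unknown, differences rest on a single pair of libraries without replicates, so sizes are given and no p-value.

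Before a fatty acid can be oxidised it is joined to coenzyme A, a step called activation. Long-chain acyl-CoA then crosses into the mitochondrion as a carnitine ester and is shortened in repeated rounds of dehydrogenation, hydration, a second dehydrogenation and thiolysis, each round releasing acetyl-CoA. Very long and branched chains are shortened first in peroxisomes, by a parallel set of enzymes. The adult heart draws most of its energy from this route, whereas the embryonic heart relies more on glucose and lactate.

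The heterozygote library held 13944617 reads and the mutant library 14122579. Ezh2 itself had 493 heterozygote and 319 mutant reads (scaled 36.4 and 21.9 counts per 1000000 reads, CPM), a mutant-to-heterozygote ratio of 0.601 with a 95% counting interval of 0.521 to 0.694. Every interval of a ratio in the text is of this kind and covers counting error only. The labels name cardiomyocytes, and the 9 cardiomyocyte markers summed to 48326 CPM (heterozygote) and 46761 CPM (mutant). Of these markers 5 of 9 were lower, and 8 of 9 were within 1.2-fold of equal. Without scaling they made up 4.69% and 4.82% of reads. The apex also held other cells. Erythroid markers summed to 4352 CPM (heterozygote) and 3459 CPM (mutant), with 5 of 6 lower in the mutant. Smooth muscle and pericyte markers summed to 1449 and 1265 CPM (5 of 5 lower), endothelial and endocardial markers to 785 and 752 CPM (5 of 7 lower) and leukocyte markers to 52.3 and 39.2 CPM (3 of 5 lower). Most of the smooth muscle and pericyte sum came from Acta2 (1107 and 936 CPM) and Cnn1 (303 and 298 CPM). Pdgfrb was at 32.9 and 29.3 CPM, Rgs5 at 3.55 and 0.481 CPM and Myh11 at 1.85 and 0.893 CPM. Which cells held the Acta2 and Cnn1 reads was not tested. Epicardial markers summed to 145 and 142 CPM (3 of 5 lower), markers of fibroblasts and valve mesenchyme to 947 and 934 CPM (2 of 5 lower), and neuronal markers to 5.54 and 4.88 CPM (2 of 3 lower). The scaled sum over all genes had a ratio of 0.941. Without scaling, shares of reads were higher in the mutant for endothelial (0.0762% and 0.0775%), epicardial (0.0140% and 0.0146%) and fibroblast and valve markers (0.0919% and 0.0963%). They were lower for erythroid (0.422% and 0.357%), smooth muscle (0.141% and 0.130%), leukocyte (0.00507% and 0.00404%) and neuronal markers (0.000538% and 0.000503%). Markers of the liver and yolk sac, tissues rich in these enzymes, were nearly absent at 63 and 27 reads for all 8 genes together, and the 4 brown fat markers had 84 reads in each library, with Ucp1 and Adipoq at 0 in the heterozygote and 1 in the mutant. The part of these cell types in the differences below was not tested.

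The level of each gene was compared between genes only per length, as reads per kilobase and 1000000 reads (RPKM) on the longest annotated transcript. The electron carrier subunit Etfb was highest, at 177 RPKM (heterozygote) and 165 RPKM (mutant), followed in the heterozygote by the long-chain dehydrogenase Acadl (114 and 111), the electron carrier subunit Etfa (109 and 102) and the trifunctional protein subunit Hadha (106 and 89.7). Cpt1b, the muscle form of the enzyme that commits fatty acids to mitochondrial entry, stood at 81.9 and 82.1 RPKM. The liver form Cpt1a stood at 10.6 and 11.3 RPKM. In all, 18 members reached 20 RPKM in the heterozygote, and none of these belonged to the peroxisomal group or to the activation group. Acsl3 was the highest activating gene (17.8 and 16.5). Length matters for these values: with the length of the transcript that has the longest coding sequence, Hadh moved from 45.8 to 95.99 RPKM, Echs1 from 27.6 to 72.4 and Hadhb from 21.2 to 45.4 in the heterozygote.

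**Figure D1:**
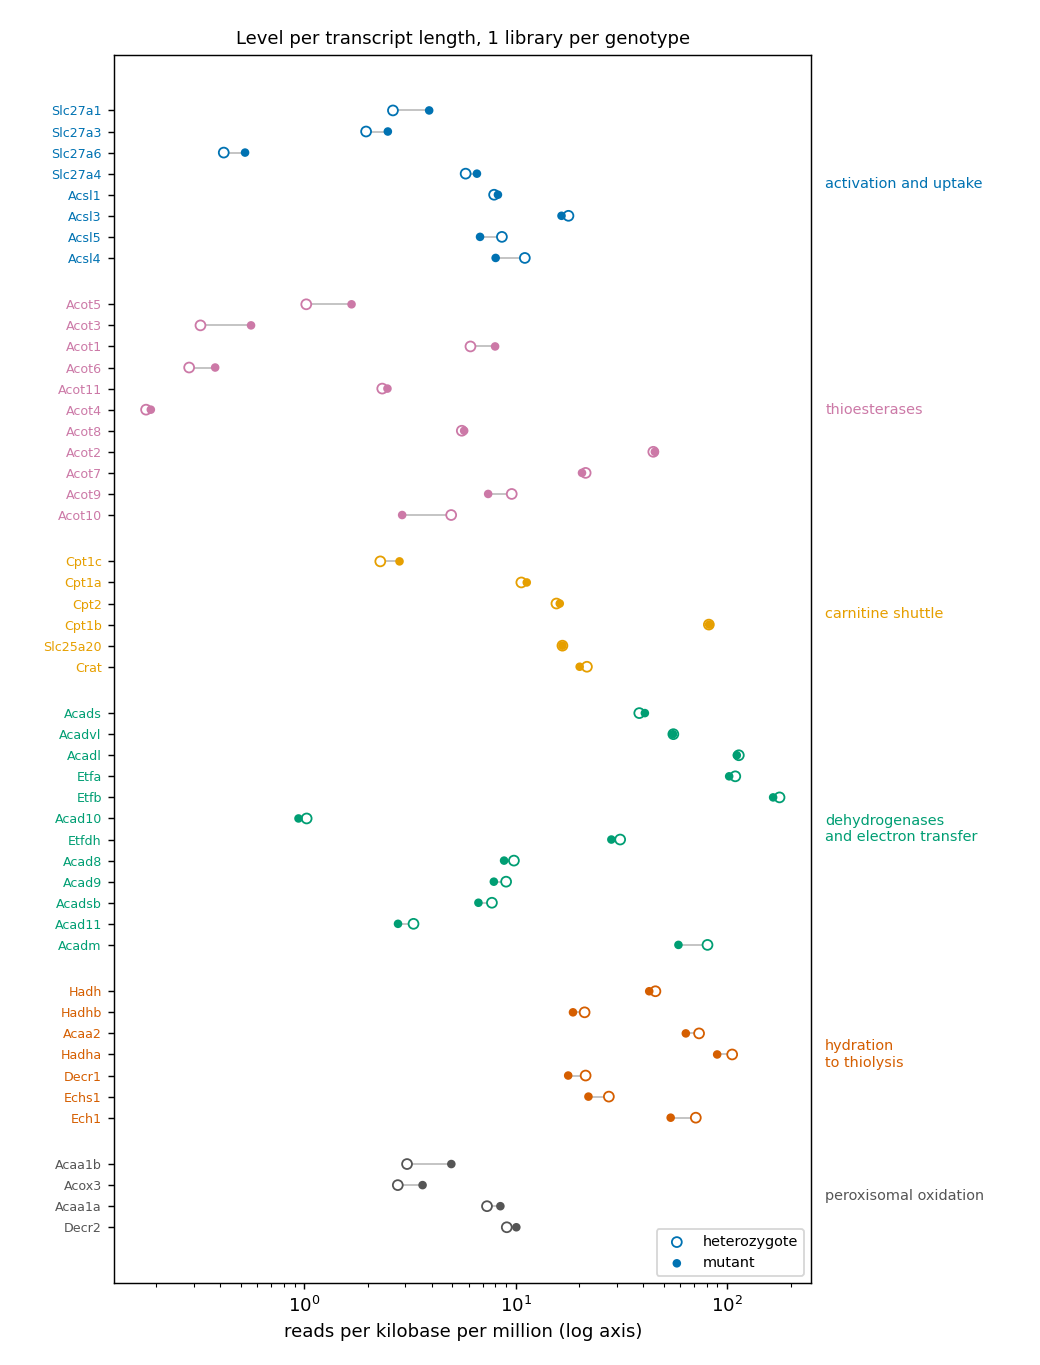
Level of 48 members with at least 1 CPM in a library, in RPKM on a log axis, by role group. Open points are the heterozygote library and filled points the mutant library, with 1 library each. Etfb is farthest right at 177 and 165, and the paired points lie close together for most genes.

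Most members differed little between the libraries. Of the 54, 49 had at least 1 CPM in a library, and 33 of these were within 1.2-fold of equal (68.1% of all 16185 genes tested were). No member was 2-fold higher and none 2-fold lower on the scale with a pseudocount of 1 CPM, where 0.605% and 0.173% of all genes were. All counts past a fold in the text use this scale, which draws genes with few reads towards equal. At 1.5-fold, 1 member was higher (Acaa1b; 3.45% of all genes) and 1 was lower (Acot10; 1.88% of all genes). A log2 ratio of mutant over heterozygote below 0 was found for 26 of 49, against 51.2% of all genes tested, and the median was -0.005 against -0.008 over all genes. When the libraries were scaled by total count instead, 22 of 49 members and 38.1% of all genes lay below 0. Together the members accounted for 0.315% of heterozygote and 0.310% of mutant reads. In pooled tissue of this kind, fewer cells of a type and less RNA per cell cannot be told apart.

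Sorted by role, the small differences did not all point the same way. All 7 genes of mitochondrial hydration, second dehydrogenation, thiolysis and double-bond handling were lower in the mutant, with a median log2 ratio of -0.24. Among the acyl-CoA dehydrogenases and their electron carriers 11 of 12 were lower, with a median of -0.12, but 9 of 12 under total-count scaling and 10 of 12 after removal of the trend with transcript GC content. The 6 genes of the carnitine shuttle had a median of 0.03, the 8 tested activation genes 0.11 and the 11 tested thioesterases 0.04. The median of the activation genes was 0.04 after removal of the GC trend. Their summed CPM went the other way, at 248 (heterozygote) and 230 (mutant), a ratio of 0.928 (0.884 to 0.974). The 4 peroxisomal genes described below were all higher, and the median of the group was 0.20. These groups are small, and 51.2% of all genes tested lay below 0 and 48.8% above it. The reads of the 7 later-step genes summed to 1067 (heterozygote) and 910 (mutant) CPM, a ratio of 0.854 (0.834 to 0.874). The same sum over all genes had a ratio of 0.941, which the scaling of the libraries sets.

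**Figure D2:**
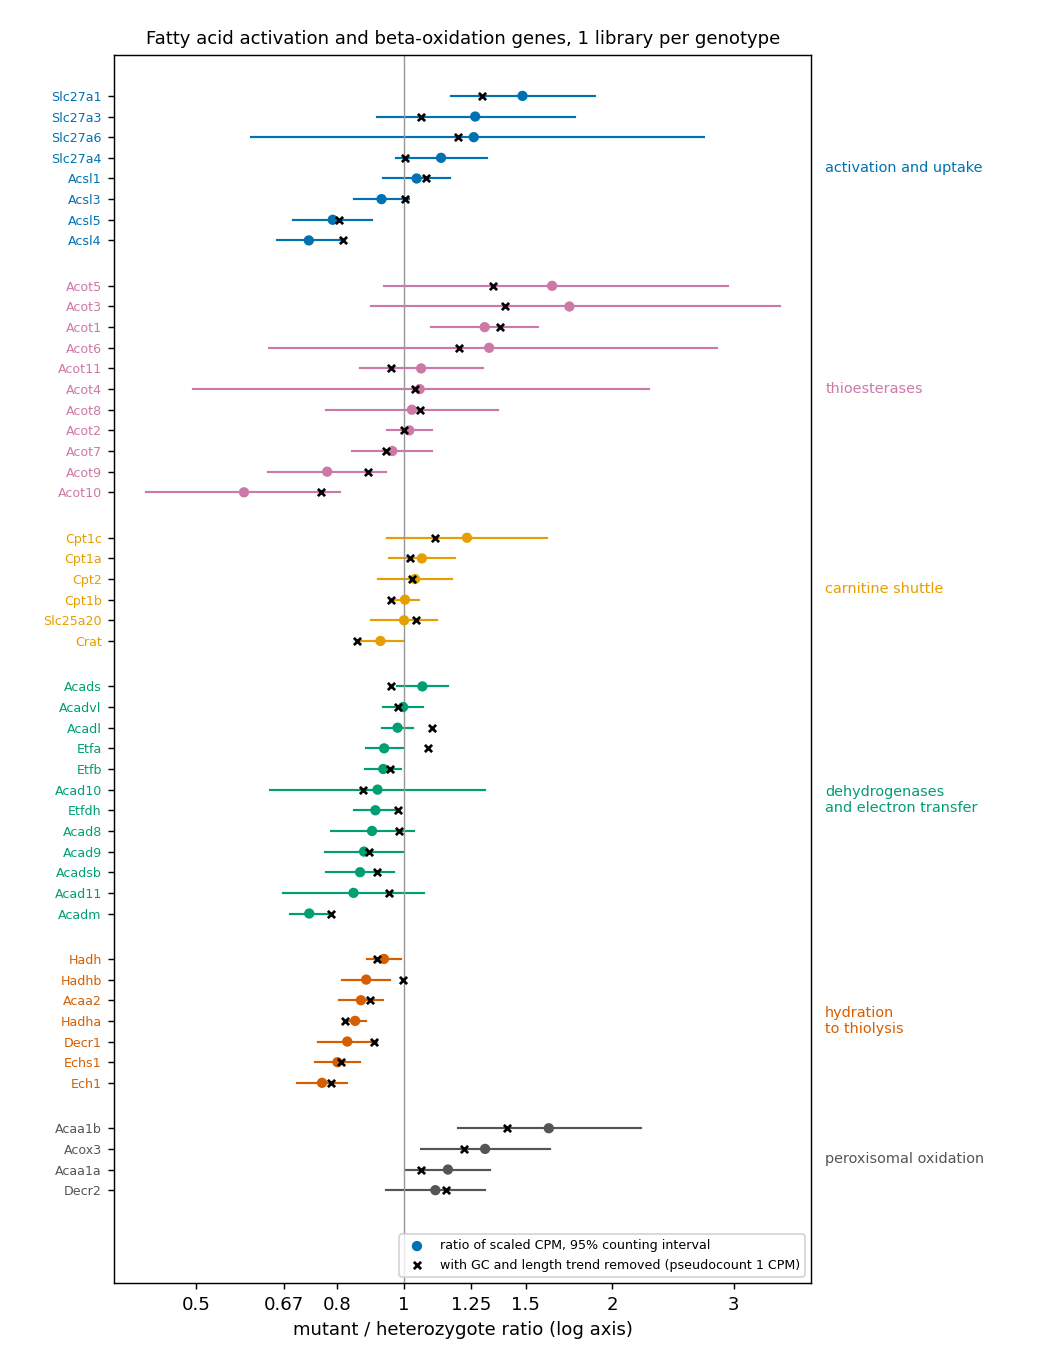
Mutant-to-heterozygote ratio of each of 48 tested members on a log axis, by role group. Points are ratios of scaled CPM, bars are 95% counting intervals, and crosses are the values after removal of the trend with GC content and length, on the scale with a pseudocount of 1 CPM. All 7 points from hydration to thiolysis lie left of 1 and all 4 peroxisomal points lie right of it.

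**Figure D3:**
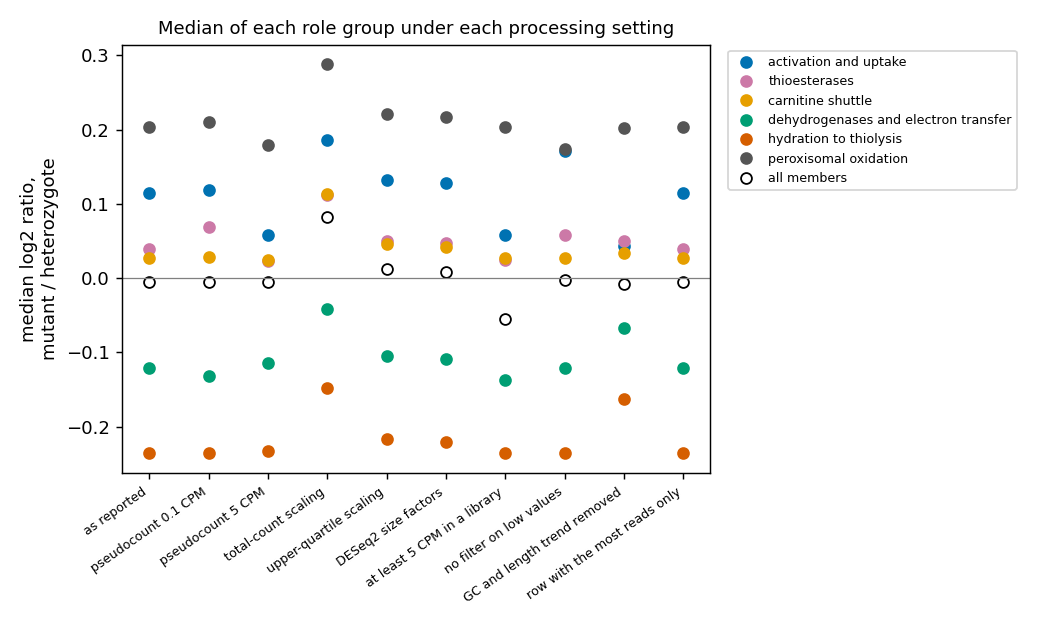
Median log2 ratio of mutant over heterozygote (y axis) for each role group and for all members under each processing setting (x axis). Each point is 1 median. The hydration to thiolysis group stays lowest (-0.24 as reported) and the peroxisomal group highest (0.20 as reported) under every setting.

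Activation genes went both ways. The synthetase Acsl4, which prefers arachidonic acid, had 789 heterozygote and 618 mutant reads (58.3 and 42.5 CPM), a ratio of 0.728 (0.654 to 0.810). Acsl5 had 494 and 419 reads (36.5 and 28.8 CPM), a ratio of 0.788 (0.690 to 0.900). Both were lower in the mutant, with intervals wholly below 1. Acsl3, a synthetase found on lipid droplets, had 949 and 947 reads (70.2 and 65.0 CPM; ratio 0.927, 0.847 to 1.02). Acsl1, the main synthetase of the adult heart, had 607 and 681 reads (44.9 and 46.8 CPM; ratio 1.04, 0.933 to 1.16). The intervals of Acsl3 and Acsl1 include 1. Acsl6, known from brain, had 0 and 2 reads.

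The 4 measurable Slc27a genes, which encode membrane proteins that take up and activate fatty acids, were all on the higher side in the mutant (48.8% of all genes tested were). Slc27a1, the form of muscle and fat, had 114 and 182 reads (8.43 and 12.502 CPM), a ratio of 1.48 (1.17 to 1.89) or 0.52 on the log2 scale. Slc27a4 had 318 and 387 reads (ratio 1.13, 0.972 to 1.32), Slc27a3 66 and 90 (1.27, 0.912 to 1.77) and Slc27a6 14 and 19 (1.26, 0.599 to 2.72). Of these intervals, that of Slc27a1 was the 1 that excluded a ratio of 1. The liver forms had next to no reads, with 0 and 3 for Slc27a2 and 3 and 1 for Slc27a5, and no ratio is given for them.

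Thioesterases release the fatty acid from coenzyme A again. Acot1 to Acot6 lie in 1 cluster on chromosome 12 (85328840 to 85450733 in the files' coordinates, whose genome build the sources used here do not name), a span of 121.9 kilobases. All 6 had log2 ratios above 0 (48.8% of all genes tested), as they did under total-count scaling. Acot2 and Acot4 were close to equal at 0.02 and 0.04, and Acot2 was at -0.002 after removal of the GC trend. The mitochondrial Acot2 led the cluster with 1329 and 1455 reads (98.2 and 99.9 CPM), a ratio of 1.02 (0.944 to 1.10). Its cytosolic neighbour Acot1 had 216 and 304 reads (15.97 and 20.9 CPM), a ratio of 1.31 (1.09 to 1.56). The coding sequences of this pair are identical at 95.6% of 1236 aligned bases, so the split of reads between them is uncertain. Their sum had a ratio of 1.06 (0.987 to 1.13). The share of Acot1 in the pair was 13.98% of heterozygote reads (Wilson 95% interval 12.3 to 15.8) and 17.3% of mutant reads (15.6 to 19.1), intervals that overlap slightly. Acot3, Acot4, Acot5 and Acot6 had at most 37 reads in a library, and the intervals of all 4 included 1. Acot3 and Acot5 (85.8% identical) had the highest ratios of these, 1.73 (0.895 to 3.49) and 1.64 (0.934 to 2.94), or 0.47 each on the log2 scale with the pseudocount.

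Outside the cluster, Acot10 was the lowest of all members. It had 103 heterozygote and 65 mutant reads (7.61 and 4.46 CPM), which is 1.71-fold lower in the mutant (1.24 to 2.36), with a log2 ratio of -0.66. Acot10 and the mitochondrial Acot9 share 97.2% of 1317 coding bases, so reads of the pair cannot be assigned with certainty. Acot9 had 227 and 189 reads (16.8 and 13.0 CPM; ratio 0.774, 0.634 to 0.943), and the sum of the pair had a ratio of 0.715 (0.605 to 0.845). By the reads assigned to it, each gene was lower, and so was the sum. The share of Acot10 in the pair was 31.2% of heterozygote reads (26.5 to 36.4) and 25.6% of mutant reads (20.6 to 31.3), intervals that overlap. Acot10 was no longer past 1.5-fold under total-count scaling (log2 ratio -0.58), with a pseudocount of 5 CPM (-0.41) or after removal of the GC trend (-0.40). The cytosolic Acot7 had 436 and 451 reads (32.2 and 31.0 CPM; ratio 0.961, 0.841 to 1.10). Acot8, a peroxisomal thioesterase, had 96 and 106 reads, Acot11 180 and 205, and Acot12, known from liver, 2 and 4.

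The carnitine shuttle genes were close to equal, with a ratio of their summed CPM of 0.999 (0.965 to 1.03). Cpt1b had 3208 and 3462 reads (237 and 238 CPM), a ratio of 1.003 (0.955 to 1.05). Slc25a20, the translocase that exchanges acylcarnitine across the inner membrane, had 619 and 666 reads (45.8 and 45.7 CPM), a ratio of 0.9997 (0.895 to 1.12). Cpt2, which turns acylcarnitine back into acyl-CoA inside, had 500 and 558 (37.0 and 38.3 CPM; ratio 1.04, 0.917 to 1.17). The intervals of these 3 steps of entry all include 1. Cpt1a had 621 and 709 reads (45.9 and 48.7 CPM; ratio 1.06, 0.951 to 1.18), and its share of Cpt1a plus Cpt1b reads was 16.2% of heterozygote reads (15.1 to 17.4) and 17.0% of mutant reads (15.9 to 18.2). The intervals of the shares overlap. Crat, which makes acetylcarnitine, had 1241 and 1234 reads (91.7 and 84.8 CPM; ratio 0.924, 0.853 to 1.0005), and the neuronal form Cpt1c had 101 and 134 (ratio 1.23, 0.945 to 1.61). Under total-count scaling the log2 ratio of Cpt1b was 0.09 and the median of the group 0.11.

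Among the acyl-CoA dehydrogenases, which catalyse the first step of each round and are named for chain length, Acadm had the lowest ratio. This medium-chain enzyme had 2235 heterozygote and 1753 mutant reads (165 and 120 CPM), a ratio of 0.729 (0.684 to 0.776) or -0.45 on the log2 scale. The long-chain Acadl had 2942 and 3097 reads (217 and 213 CPM; ratio 0.978, 0.930 to 1.03), the very long-chain Acadvl 1632 and 1750 (ratio 0.996, 0.931 to 1.07) and the short-chain Acads 1051 and 1202 (ratio 1.06, 0.977 to 1.16). The interval of Acadm lies wholly below those of these 3, but it overlaps those of Acadsb, Acad9, Acad10 and Acad11, given below. After removal of the GC trend the log2 ratio of Acadm was -0.35, while those of Acadl, Acadvl and Acads were 0.13, -0.03 and -0.07. The upstream region of Acadm is shown because this gene differed most among the dehydrogenases: it holds TGACCTT, the reverse complement of the half-site AAGGTCA recognised by orphan nuclear receptors such as the estrogen-related receptors, in capitals. The sequence is the 250 bases before the start site in RefSeq, GRCm38.p6, minus strand, chr3:153944644-153944893.
Acadm: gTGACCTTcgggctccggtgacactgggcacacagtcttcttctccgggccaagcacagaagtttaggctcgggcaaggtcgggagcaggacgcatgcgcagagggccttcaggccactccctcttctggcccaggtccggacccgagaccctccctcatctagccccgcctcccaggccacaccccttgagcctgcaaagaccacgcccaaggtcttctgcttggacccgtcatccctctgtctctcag

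AAGGTCA was present on either strand of 4.08% of 32851 such upstream windows in the genome and of 7.41% of 54 windows of members (4 windows, in Acadm, Acot4, Acsl6 and Slc27a2). Of the 54 members, 45 had a window in the table. A direct repeat of AGGTCA with 1 base between the copies, the classical binding motif of peroxisome proliferator-activated receptors, was in 0.0335% of all windows and in 0 member windows. A match is a stretch of letters and says nothing of binding.

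The electron carriers and the other dehydrogenases had ratios closer to 1 than Acadm. Etfa and Etfb, which together form the flavoprotein that accepts electrons from every acyl-CoA dehydrogenase, had 2057 and 2071 reads (152 and 142 CPM) and 2136 and 2144 reads (158 and 147 CPM). Their ratios were 0.936 (0.880 to 0.995) and 0.933 (0.878 to 0.991). Etfdh, which passes the electrons to the respiratory chain, had 1578 and 1543 reads and a ratio of 0.909 (0.846 to 0.975). The 3 intervals overlap one another and lie below 1, but under total-count scaling the log2 ratios were -0.01, -0.01 and -0.05. After removal of the GC trend Etfa turned to 0.12, with Etfb at -0.07 and Etfdh at -0.03. Acadsb and Acad8, which act on branched-chain amino acids rather than fatty acids, had 635 and 590 reads (ratio 0.863, 0.770 to 0.967) and 423 and 409 reads (0.898, 0.782 to 1.03). Acad9, also an assembly factor of respiratory complex I, had 479 and 451 reads (0.875, 0.768 to 0.997). Acad11 had 154 and 140 reads and Acad10 66 and 65, and their ratios were 0.845 (0.667 to 1.07) and 0.915 (0.640 to 1.31). Of the 12 genes in this group, Acads alone had a log2 ratio above 0 (0.09), and it was below 0 after removal of the GC trend.

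The later steps of mitochondrial oxidation were lower throughout. Hadha and Hadhb, the subunits of the trifunctional protein that carries out the last 3 steps on long chains, lie head to head on chromosome 5 (30444844 to 30481520 and 30481829 to 30511123 in the files' coordinates). Hadha had 5738 heterozygote and 5244 mutant reads (424 and 360 CPM), a ratio of 0.849 (0.818 to 0.882). Hadhb had 1257 and 1192 reads (92.9 and 81.9 CPM), a ratio of 0.881 (0.813 to 0.955). The intervals overlap, and the share of Hadhb in the reads of the pair was 17.97% of heterozygote reads (17.1 to 18.9) and 18.5% of mutant reads (17.6 to 19.5). In RefSeq their start sites are separated by 272 bases. The sequence is shown because it lies upstream of both genes and covers the part of this gap next to Hadha (GRCm38.p6, minus strand, chr5:30154981-30155230), with CCGCCC, the reverse complement of the GC box GGGCGG, in capitals.
Hadha and Hadhb: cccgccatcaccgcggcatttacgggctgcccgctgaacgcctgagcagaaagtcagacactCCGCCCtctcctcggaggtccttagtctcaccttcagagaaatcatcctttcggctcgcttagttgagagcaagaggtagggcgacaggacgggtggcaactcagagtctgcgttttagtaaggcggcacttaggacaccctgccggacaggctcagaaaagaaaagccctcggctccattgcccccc

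Short and medium chains are handled by separate enzymes. The hydratase Echs1 had 1525 and 1314 reads (113 and 90.3 CPM), a ratio of 0.801 (0.743 to 0.862). The dehydrogenase Hadh had 2323 and 2337 reads (172 and 161 CPM; ratio 0.935, 0.882 to 0.990), and the thiolase Acaa2 had 1510 and 1407 reads (112 and 96.6 CPM; ratio 0.866, 0.805 to 0.932). All 3 were lower in the mutant, Echs1 the most. The auxiliary enzymes Ech1 and Decr1, which rearrange the double bonds of unsaturated fatty acids, had 1218 and 997 reads (90.0 and 68.5 CPM; ratio 0.761, 0.699 to 0.828) and 857 and 763 reads (63.4 and 52.4 CPM; ratio 0.827, 0.749 to 0.913). Ech1 is also found in peroxisomes. The 7 intervals of this group all lay below 1. All 7 log2 ratios were also below 0 under total-count scaling, where the median was -0.15, and after removal of the GC trend, where it was -0.16, with Hadh closest to 0 in the former (-0.01) and Hadhb in the latter (-0.007).

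The peroxisomal members described here had ratios above 1. Acaa1a and Acaa1b encode duplicate thiolases on chromosome 9 (119250412 to 119259413 and 119057161 to 119066211 in the files' coordinates), and Acaa1b was the 1 member at least 1.5-fold higher on the scale with a pseudocount of 1 CPM. It had 70 heterozygote and 122 mutant reads (5.17 and 8.38 CPM), a ratio of 1.62 (1.197 to 2.20) or 0.60 on the log2 scale. Acaa1a had 363 and 452 reads (26.8 and 31.0 CPM), a ratio of 1.16 (1.005 to 1.33). By the reads assigned to it, each copy was higher, Acaa1b by more. With 96.5% of 1272 coding bases identical, the reads of the copies cannot be split with certainty. Their sum had a ratio of 1.23 (1.09 to 1.40), and the share of Acaa1b was 16.2% of heterozygote reads (13.0 to 19.9) and 21.3% of mutant reads (18.1 to 24.8), intervals that overlap. Acaa1b was no longer past 1.5-fold with a pseudocount of 5 CPM (log2 ratio 0.40) or after removal of the GC trend (0.495). The regions upstream of the start sites are shown because the copies are nearly alike in coding sequence and may be compared here (RefSeq, GRCm38.p6; Acaa1a on the plus strand, chr9:119341044-119341293; Acaa1b on the minus strand, chr9:119157094-119157343). Capitals mark the CCAAT box, on either strand (CCAAT or ATTGG), and the GC box GGGCGG, of which Acaa1a has 3 each and Acaa1b has 2 CCAAT boxes and 0 GC boxes.
Acaa1a: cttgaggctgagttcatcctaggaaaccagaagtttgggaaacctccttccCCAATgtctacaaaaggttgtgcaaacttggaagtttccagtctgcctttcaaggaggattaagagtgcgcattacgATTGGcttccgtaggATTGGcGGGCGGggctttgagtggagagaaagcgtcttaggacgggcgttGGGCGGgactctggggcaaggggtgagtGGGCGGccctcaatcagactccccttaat
Acaa1b: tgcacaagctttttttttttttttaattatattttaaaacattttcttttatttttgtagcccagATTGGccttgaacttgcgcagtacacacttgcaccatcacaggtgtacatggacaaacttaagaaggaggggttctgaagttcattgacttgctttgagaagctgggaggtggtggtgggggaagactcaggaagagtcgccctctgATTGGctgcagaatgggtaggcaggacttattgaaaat

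The CCAAT box was in 33.8% of all upstream windows and in 53.7% of the 54 windows of members, and the GC box in 32.7% and 63.0%. Windows of all genes include those of genes silent in the heart.

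Acox genes encode oxidases that open the peroxisomal route. Acox3, for branched chains, had 149 and 210 reads (11.01 and 14.4 CPM), a ratio of 1.31 (1.06 to 1.63). Decr2, the peroxisomal counterpart of Decr1, had 273 and 326 reads (20.2 and 22.4 CPM; ratio 1.11, 0.942 to 1.31). The interval of Decr2 includes 1, and that of Acox3 does not. Acox2, the oxidase of bile acid synthesis, had 1 and 0 reads. After removal of the GC trend the log2 ratios of Acaa1a, Acaa1b, Acox3 and Decr2 were still above 0.

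The GC content of a transcript moved with these differences. Over 13238 tested genes with a value, the log2 ratio and GC content had a Spearman rho of 0.41, and over the 49 tested members rho was 0.53. These are descriptions across genes of the same 2 libraries, which are not independent. Acot10, Acsl4 and Acot9, all lower in the mutant, had transcripts with 41.9%, 39.0% and 45.3% GC, whereas Acaa1b and Slc27a1, both higher, had 58.9% and 56.9%. Removal of a fitted trend took Acsl4 from -0.45 to -0.29 and Hadhb from -0.18 to -0.01. It took Acot10 from -0.66 to -0.40, Slc27a1 from 0.52 to 0.37 and Acot9 from -0.35 to -0.17. Ech1 went from -0.39 to -0.35 and Echs1 from -0.32 to -0.30. Other members moved away from 0, such as Acot1 from 0.37 to 0.46, Crat from -0.11 to -0.23 and Hadha from -0.24 to -0.28. Of the 49 tested members, 41 had the same sign with and without the trend. The sign changed for Acadl, Acads, Acot2, Acot11, Acsl3, Cpt1b, Etfa and Slc25a20, of which Etfa (-0.10 to 0.12) and Acadl (-0.03 to 0.13) ended farthest from 0.

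**Figure D4:**
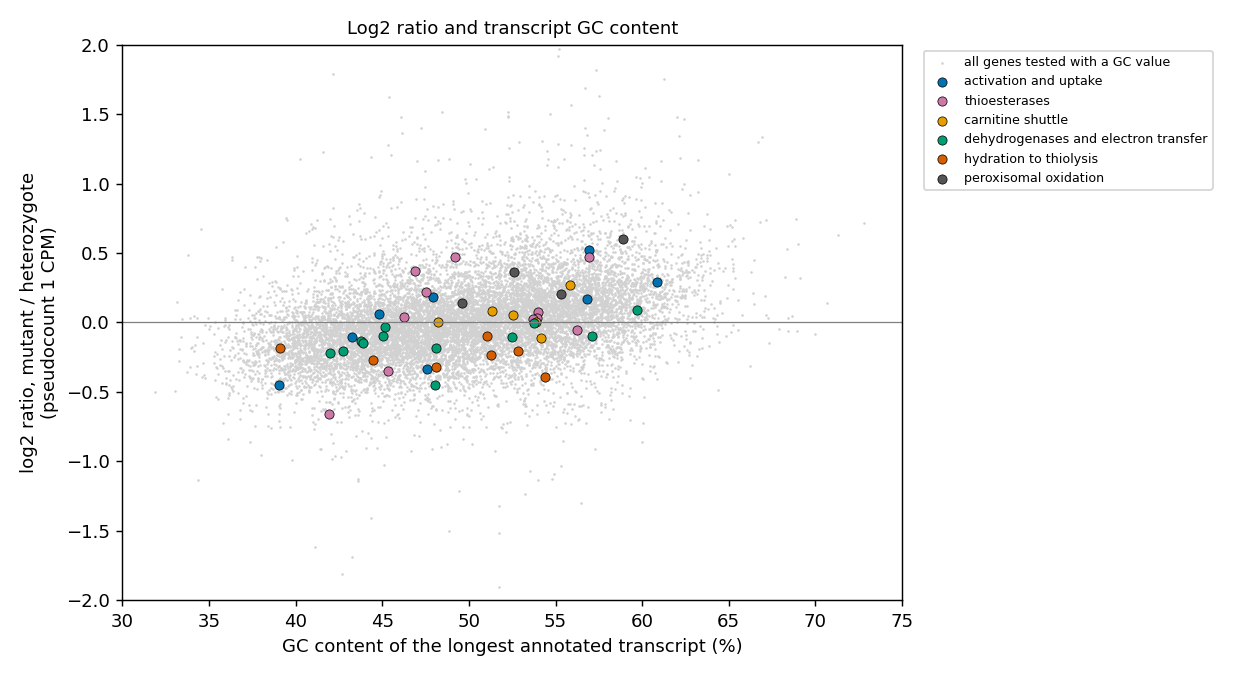
Log2 ratio of mutant over heterozygote (pseudocount 1 CPM) against the GC content in percent of the longest annotated transcript. Grey points are all 13238 tested genes with a GC value, of which 7 lie outside the axes, and coloured points are 48 members by role group. Members low in GC, such as Acot10 at 41.9%, tend to lie below 0 and members high in GC, such as Acaa1b at 58.9%, above it.

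The genes around the pathway gave the setting. Of 30 listed oxidation enzymes outside these families that were in the table, 26 were tested. None was past 1.5-fold (3.45% of all genes were higher and 1.88% lower). Below 0 were 15 of the 26 (51.2% of all genes), with a median of -0.11. Under total-count scaling the median was -0.02, against 0.07 over all genes. After removal of the GC trend the median was also -0.02, with 13 above 0 and 13 below. Acat1, a mitochondrial thiolase of ketone and isoleucine metabolism and the highest of them, had 2446 and 2315 reads (ratio 0.879, 0.830 to 0.931). The enoyl-CoA isomerases Dci and Peci, now called Eci1 and Eci2, had ratios of 0.921 (0.843 to 1.006) and 0.770 (0.692 to 0.857). Both work beside Decr1 and Ech1 on unsaturated chains. The peroxisomal acyl-CoA transporter Abcd3 had a ratio of 1.18 (1.05 to 1.31), and the peroxisomal multifunctional enzyme Hsd17b4 1.04 (0.954 to 1.14), but the peroxisomal thiolase Scp2 0.764 (0.682 to 0.855) and Hacl1, of peroxisomal alpha-oxidation, 0.723 (0.512 to 1.02). Peroxisomal genes of this list thus went both ways. Other than Acat1 these genes were named after their values were seen.

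Genes for uptake, binding and storage of fatty acids had a median of -0.09 over 20 tested, with 13 below 0 (51.2% of all genes tested). Under total-count scaling the median of this list was -0.004, with 10 of 20 above 0, and that of all genes tested was 0.07. After removal of the GC trend the median of the list was -0.06, with 13 below 0. Past 1.5-fold were 1 higher and 2 lower (3.45% and 1.88% of all genes). Fabp4 (500 and 143 reads; ratio 0.266, 0.219 to 0.321) and Gpihbp1 (81 and 34 reads; ratio 0.390, 0.253 to 0.589), both known from capillary endothelium, were at least 2-fold lower (0.173% of all genes). The lipid droplet gene S3-12, now called Plin4, was higher with 11 and 26 reads (0.813 and 1.79 CPM; ratio 2.20, 1.05 to 4.92). S3-12 passed the minimum of 1 CPM through the mutant library alone, so it could be counted only as higher. It overlaps Hdgfrp2 on the opposite strand, which had 593 and 762 reads, and without knowledge of strand the reads of the pair cannot be told apart. Dbi, the acyl-CoA binding protein that carries activated fatty acids, singled out after its value was seen, had 2490 and 2084 reads (ratio 0.778, 0.733 to 0.825). Cd36, the main fatty acid uptake receptor and likewise singled out, had 1008 and 754 reads (ratio 0.695, 0.632 to 0.765).

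Fatty acid synthesis, the opposing route, was on the higher side. Above 0 were 9 of 11 genes (48.8% of all genes tested), with a median of 0.14 and none past 1.5-fold. The desaturase Scd2 was the highest of them with 13539 and 16394 reads (ratio 1.13, 1.10 to 1.15). Acaca and Acacb make malonyl-CoA, the inhibitor of Cpt1, and Mlycd removes it. Chosen after their values were seen, they had ratios of 1.28 (1.12 to 1.45), 1.10 (1.02 to 1.196) and 1.02 (0.858 to 1.21). After removal of the GC trend 7 of the 11 were above 0, with Acacb at -0.10 and Mlycd at -0.16. Carnitine supply genes were few, with 4 of 6 tested. Among them Slc22a21, a carnitine transporter, had 9 heterozygote and 49 mutant reads (0.665 and 3.37 CPM), a ratio of 5.06 (2.46 to 11.7). Slc22a21 passed the minimum of 1 CPM through the mutant library alone, so it could be counted only as higher. The cell membrane carnitine transporter Slc22a5, chosen after its value was seen, had 126 and 157 (ratio 1.16, 0.910 to 1.48).

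Of 9 tested genes of ketone body use and the fasting response, 8 were above 0 (48.8% of all genes tested), with a median of 0.42. Bdh1, which interconverts the ketone bodies, had 145 and 267 reads (10.7 and 18.3 CPM; ratio 1.71, 1.39 to 2.11). It was the 1 gene of this list past 1.5-fold, and 3.45% of all genes were at least 1.5-fold higher. Oxct1, which activates ketone bodies for oxidation and was named after its value was seen, had 3741 and 3573 reads and was the 1 below 0 (ratio 0.887, 0.847 to 0.929). Pdk4 and Ucp2, also singled out after their values were seen, are known targets of fatty acid signalling. They had ratios of 1.37 (1.202 to 1.57) and 1.49 (1.38 to 1.60).

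Regulators of the pathway did not share a direction. Of 19 tested, 8 were above 0 and 11 below (48.8% and 51.2% of all genes tested), with a median of -0.03. Under total-count scaling 14 of the 19 were above 0, with a median of 0.06 against 0.07 over all genes. After removal of the GC trend 10 were above 0 and 9 below, with a median of 0.01. None was past 1.5-fold on the scale with the pseudocount, where Klf15, a regulator of cardiac lipid use with 70 and 46 reads, was lowest at -0.57, while its plain ratio was 0.611 (0.412 to 0.898). The corepressor Ncor1 was the highest by CPM, with 3099 and 3323 reads (ratio 0.996, 0.948 to 1.05). Ppara, the nuclear receptor best known for switching on these genes, had only 92 and 85 reads (ratio 0.858, 0.632 to 1.17), and its relative Ppard had 288 and 385 (ratio 1.24, 1.06 to 1.45). The coactivator Ppargc1a had 953 and 815 reads (ratio 0.795, 0.723 to 0.873). The estrogen-related receptor Esrrg had 984 and 1391 (ratio 1.31, 1.21 to 1.43) and Esrra 837 and 861 (ratio 0.956, 0.868 to 1.05). Other than Ncor1, these were named after their values were seen.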

How the data were processed

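Whole-number read counts per gene model were deposited for 1 library per genotype, per the file headers. The authors' CPM columns are reads per 1000000 of the library total, without length scaling. The authors' fold, a ratio of heterozygote over mutant CPM, is blank for 5 of the 54 members, and the deposited p-value has no named test; neither was used. For aligner, counter, strand use and genome build the sources used here name nothing.

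Rows of 1 symbol were summed, and libraries were scaled by TMM (edgeR 4.0.16, R 4.3.3). Log2 ratios used a pseudocount of 1 CPM and a minimum of 1 CPM in either library. Plain ratios have exact conditional Poisson 95% intervals and shares Wilson intervals. They cover counting error only, since 1 library per genotype gives no spread between animals. Reads lacking molecular identifiers may be copies of 1 molecule, and the intervals would then be too narrow. No fold is given where both libraries had at most 3 reads.

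Lengths and GC content came from GENCODE M21, promoters from RefSeq. A quadratic trend with transcript GC and log length, fitted to genes from 5 CPM upward, was subtracted as an alternative. Other alternatives changed pseudocount, scaling, filter and duplicate rows. Named by rule were the 4 highest members of each role group, members past 1.5-fold and, of each pathway list, genes past 1.5-fold or else the highest; other members were named after their values were seen. Members, role groups and lists were chosen with earlier results of these data known. The files do not pair older symbols with current ones; these were matched through RefSeq synonyms. The values of 1 tested member are not reported here; counts and medians over all members include it.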

Additional observations from a re-analysis of the deposited data

How the results depend on the processing

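The member counts at 2-fold, at 1.5-fold and below 0, and the medians of all members and of the role groups, were recomputed under 9 alternative settings; the count within 1.2-fold was not, and the pathway medians were recomputed only under total-count scaling and without the trend. The count of members at least 2-fold apart was 0 in each direction under all 9. The count at least 1.5-fold higher, 1 as reported, was 3 with a pseudocount of 0.1 CPM, 2 under total-count scaling, and 0 with a pseudocount of 5 CPM or after removal of the GC and length trend. The count at least 1.5-fold lower, also 1, was 0 after the trend was removed, with a pseudocount of 5 CPM and with libraries scaled by total count. The median log2 ratio of all members, -0.005, changed sign to 0.0817 under total-count scaling, 0.0129 under upper-quartile scaling and 0.00885 with DESeq2 size factors; total-count scaling moved the median of all genes tested from -0.008 to 0.07, and the share of genes below 0 from 51.2% to 38.1%. The medians of the 6 role groups kept their sign under all 9 alternatives. A length taken from the transcript with the longest coding sequence, chosen after seeing the data, left 19 members at or above 20 RPKM instead of 18. No paired analysis was possible because each genotype has 1 library. For genes with few reads, such as Acot3 to Acot6, the intervals are too wide to tell differences of the size seen here from counting error.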

Other observations

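Some members share their locus with other models of the table, which can count the same reads. The model Pte2 overlaps Acot8 on the same strand with 72 and 60 reads, beside 96 and 106 for Acot8 itself, so that the paired models lie on opposite sides of equal before scaling. Utp14b overlaps Acsl3 on the same strand with 175 and 217 reads. The model PGC-1v has the same 953 and 815 reads as Ppargc1a. On the opposite strand, Zdhhc6 overlaps Acsl5 (354 and 323 reads) and Dvl2 overlaps Acadvl (827 and 925 reads), and the sources used here do not say whether strand was used in the counting.

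Them2, the thioesterase now called Acot13, carries an older name in the table and is therefore not among the 54 genes.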
